A study of Mus musculus with 12 samples.

Results

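The genes described here are 41 DNA replication genes, a fixed list of S phase genes looked up by name on the arrays, followed through every culture condition of a study of T helper 9 (Th9) cells, the CD4+ T cells that make interleukin 9. All 41 had a probe, the one with the highest mean stood for a gene that had several, and all 41 were among the 17938 genes tested. Cdc45 and Gins2 stood on the array under older names. Each chosen probe was well above background on all 12 arrays, so none of these genes entered through a single bright group.

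The 12 one-colour arrays fall into 4 groups of 3, all from C57BL/6 mouse naive CD4+CD62L+ T cells of spleen and lymph nodes that had been activated through CD3 and CD28 and harvested on day 5. The cells of all 4 groups were expanded on day 3. Stimulated Th9 cells were grown with IL-4 (20 ng/ml), TGF-β (2 ng/ml) and anti-IFN-γ, and then received anti-CD3 at 1 µg/ml for 6 h. Th9 cells had the same culture without the last step, Th2 cells had IL-4 and anti-IFN-γ but no TGF-β, and regulatory T (Treg) cells had TGF-β (2 ng/ml), anti-IL-4 and, from day 3, IL-2. The comparisons with Treg cells thus involve several additions at once, and the Treg cells were induced in culture, not taken from the animal. Nothing in the labels says that the 3 arrays of a group came from separate cultures or animals. The p-values therefore measure the spread between these samples alone, and that spread may be technical.

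Before DNA is copied, the MCM2-7 helicase is loaded onto origins with the help of CDC6 and CDT1, and it is switched on in S phase when CDC45 and the GINS complex join it. Primase and DNA polymerase alpha start each strand, the clamp loader RFC places the PCNA clamp that holds the main polymerases on the DNA, and FEN1 and LIG1 finish the lagging strand. Transcription of many of these genes is released late in G1 when E2F factors are freed from the retinoblastoma protein, and T cells that leave rest after a signal through the T cell receptor pass through this step before they divide.

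A level below is the log2 signal of a probe relative to the 75th percentile of its array, a difference is between group means of such levels, and ± after a difference is limma's standard error (SE). A gene is named as called, higher or lower where its limma p, adjusted over all genes tested, was under 0.05. Levels of different genes come from different probes and are not set against each other. Bulk RNA was measured, so fewer cells in S phase and less RNA per cell cannot be told apart.

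Arrays of one group correlated over genes at 0.988 to 0.995. Il9 was well above background on all 3 arrays of each Th9 group and on none of the Th2 or Treg arrays, with levels of 4.77, 5.49 and 6.02 in stimulated Th9 cells, against -2.49, -1.24 and -1.52 in Th9 cells. Foxp3, the defining Treg factor, had levels of 0.75, 0.45 and 0.40 in Treg cells, was also above background in both Th9 groups (-2.13 to -1.61), and was above it on no Th2 array. All 11 pan T cell markers on the array were above background everywhere. The 12 arrays lay on 3 slides: the Th2 arrays with 1 Treg array, the other 2 Treg arrays with 2 stimulated arrays, and the Th9 arrays with 1 stimulated array. No slide held Th9 beside Th2 or Th9 beside Treg arrays, so those comparisons can be joined across slides only through the other groups.

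Across the conditions the replication genes were highest in stimulated Th9 cells and lowest in Treg cells, with Th9 and Th2 cells between them. The mean level was highest in stimulated Th9 cells for 31 of 41 genes and lowest in Treg cells for 33, and the order stimulated Th9, Th2, Th9, Treg held for 21. Taking each gene's deviation from its own mean over 12 arrays, the median over the 41 genes was 0.71, 0.86 and 0.94 on the stimulated Th9 arrays, -0.34, -0.24 and 0.25 on the Th9 arrays, -0.21, 0.07 and 0.47 on the Th2 arrays, and -0.69, -0.92 and -0.96 on the Treg arrays. The stimulated and Treg arrays did not overlap with the rest, while Th9 and Th2 arrays overlapped.

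**Figure D1:**
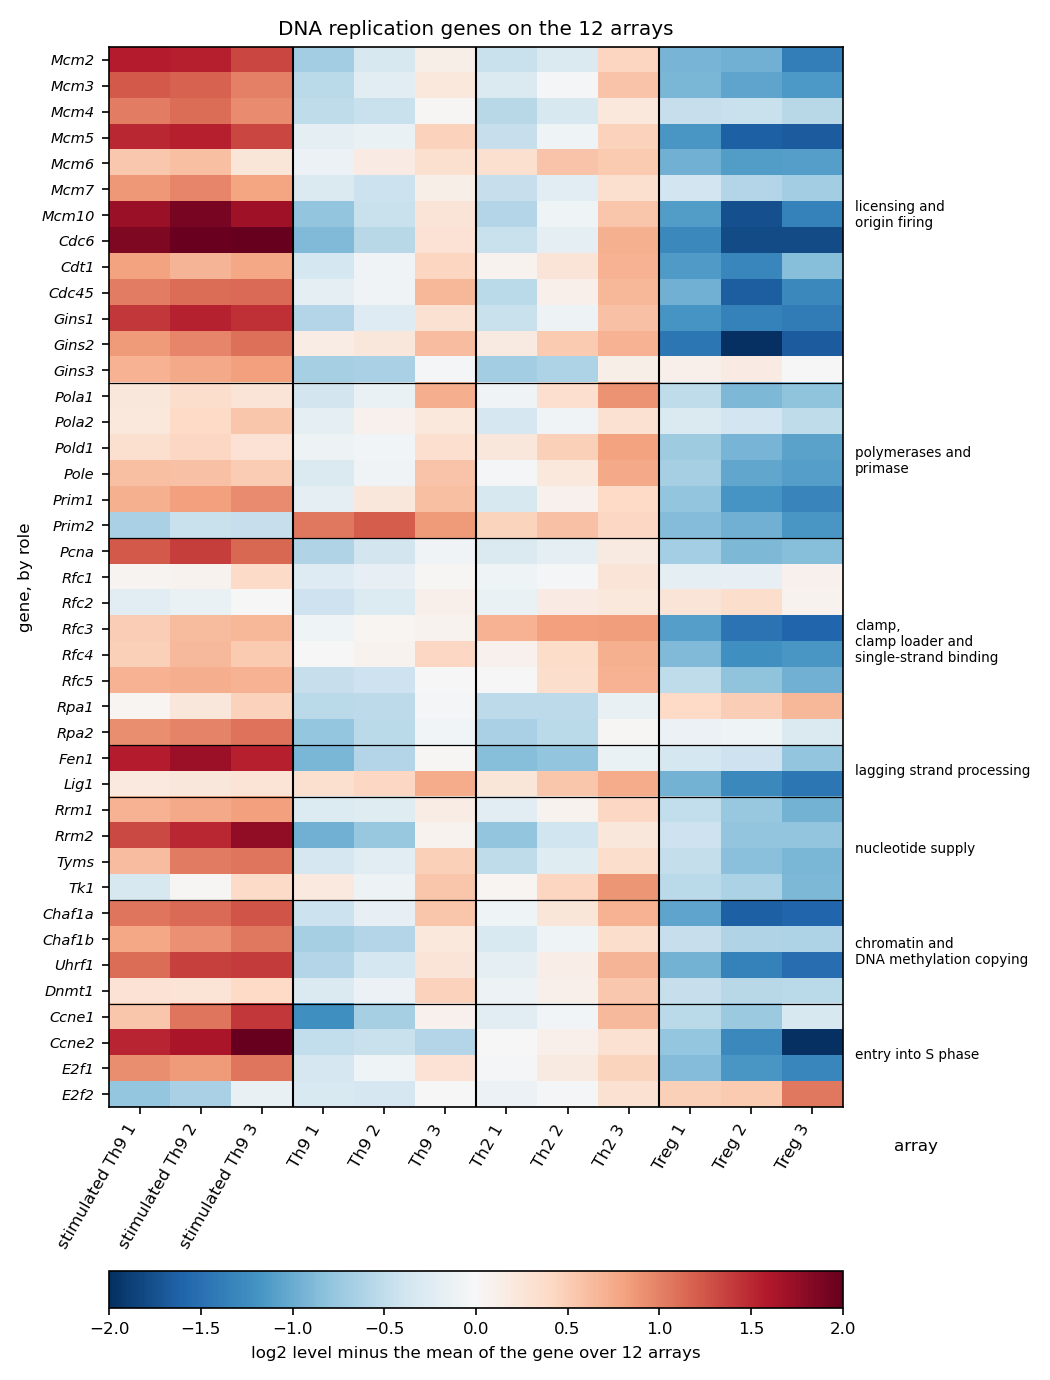
Colour map of the 41 DNA replication genes (rows, grouped by role) on the 12 arrays (columns: stimulated Th9, Th9, Th2, Treg), coloured by log2 level minus the gene's own mean over the 12 arrays (scale from -2 to 2). The stimulated Th9 columns are red and the Treg columns blue for most genes, while Prim2 is red in Th9, and E2f2 and Rpa1 are red in Treg.

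After 6 h of anti-CD3, 28 of the 41 genes were higher and 1 was lower in stimulated Th9 than in unstimulated Th9 cells, and 12 were not called. Over all genes tested, 31.9% were called higher and 32% lower. The median difference was 0.96 over the 41 genes and -0.02 over all genes, and 33 of the 41 had groups that did not overlap, against 68.5% of all genes. By role, the median difference was highest for licensing and origin genes (1.33) and lowest for polymerase and primase genes (0.32), and the largest single differences were those of Cdc6, Ccne2, Fen1, Mcm10 and Rrm2. With the slide as a block the counts were 25 higher and 1 lower (median 0.99). In that fit 25.9% of all genes were called higher and 24.8% lower. That fit takes the difference from 1 slide alone, the one that held both groups (stimulated array 3 against the 3 Th9 arrays). Within that slide the difference was positive for 39 of the 41 genes and negative for Prim2 and Lig1 (median 0.99, no test). These are the same estimates as in the block fit and not a second check.

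Of the 13 licensing and origin genes, 12 rose with stimulation, with a median difference of 1.33. Cdc6, the loader of the helicase, had levels of 2.15, 2.26 and 2.37 in stimulated Th9 cells, against -0.60, -0.27 and 0.57 in Th9 cells. It was 5.13-fold higher (2.36 ± 0.33, adjusted p = 9.84e-05), the largest increase among the chosen probes of the 41 genes without a block. A second Cdc6 probe gave a difference of 2, and with the slide as a block Ccne2 (2.64) stood above Cdc6 (2.47). With the chosen probe of Cdc6, every stimulated array lay above every other array of the series.

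Mcm10, which helps to activate the helicase, had levels of 4.33, 4.50 and 4.30 in stimulated Th9 cells, against 1.82, 2.15 and 2.86 in Th9 cells (difference 2.10 ± 0.31, adjusted p = 0.000136). Mcm2, a helicase subunit, had levels of 4.42, 4.40 and 4.19 in stimulated Th9 cells and 2.15, 2.53 and 2.96 in Th9 cells (1.79 ± 0.25, adjusted p = 9.59e-05). Both genes kept the stimulated arrays clear of the Th9 arrays by more than 1 log2 unit. The other helicase subunits differed in size of response: Mcm5 (1.43), Mcm3 (1.33), Mcm4 (1.33) and Mcm7 (1.08) rose, whereas Mcm6 differed by 0.34 ± 0.14 (95% interval 0.03 to 0.65, adjusted p = 0.0561), although the 6 subunits form a single ring.

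The GINS genes, whose products join the helicase with CDC45, rose by different amounts. Gins1 was higher by 1.65 ± 0.26, Gins3 by 1.20 ± 0.22 and Gins2 by 0.65 ± 0.21. Cdc45 (0.96 ± 0.31, adjusted p = 0.0175) and Cdt1 (0.75 ± 0.21, adjusted p = 0.00967), the licensing factor degraded in S phase, were called. Neither was called once slide entered as a block (adjusted p = 0.0965 for Cdc45 and 0.0856 for Cdt1).

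Genes that act at entry into S phase rose in 3 of 4 cases. Ccne2, encoding cyclin E2, a partner of CDK2, had levels of -0.99, -0.87 and -0.38 in stimulated Th9 cells, against -3.00, -2.95 and -3.09 in Th9 cells. It was 4.82-fold higher (2.27 ± 0.28, adjusted p = 3.74e-05), with a gap of almost 2 log2 units between the groups. Ccne1, the other cyclin E gene, had levels of 3.44, 3.96 and 4.30 in stimulated Th9 cells and 1.67, 2.22 and 2.97 in Th9 cells (1.62 ± 0.34, adjusted p = 0.00159). The Ccne1 arrays were the most scattered of the 41 genes in Th9 cells (SD 0.65, n = 3). E2f1, an activator of S phase genes, was 2.00-fold higher (1.00 ± 0.18, adjusted p = 0.000603), with levels of 1.13, 1.05 and 1.27 against -0.14, 0.11 and 0.48 in Th9 cells.

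Of the 8 genes for the clamp, its loader and single-strand binding, 5 rose (median 0.59), and Pcna and Rpa2 had the largest differences. Pcna, the sliding clamp, had levels of 6.40, 6.56 and 6.33 in stimulated Th9 cells, against 4.58, 4.81 and 5.11 in Th9 cells, and was 3.02-fold higher (1.60 ± 0.16, adjusted p = 7.33e-06). Rpa2, the middle subunit of the single-strand binding protein RPA, had levels of 2.72, 2.78 and 2.88 against 1.02, 1.26 and 1.74 in Th9 cells (1.46 ± 0.20, adjusted p = 9.04e-05). Its large subunit Rpa1 rose by 0.60 ± 0.18. Of the 5 clamp loader genes, Rfc5 (1.00 ± 0.19) and Rfc3 (0.58 ± 0.13) rose, and Rfc1 (0.29), Rfc2 (0.08) and Rfc4 (0.39) were not called.

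Of the 6 polymerase and primase genes, 1 rose and 1 fell, with a median difference of 0.32. None of Pola1 (0.21 ± 0.29), Pola2 (0.36 ± 0.17), Pold1 (0.28 ± 0.17) and Pole (0.50 ± 0.24), which encode subunits of DNA polymerases alpha, delta and epsilon, was called. Pold1, the catalytic subunit of polymerase delta, had levels of 4.34, 4.43 and 4.31 in stimulated Th9 cells, against 3.91, 3.96 and 4.36 in Th9 cells, and the interval of its difference ran from -0.09 to 0.66. Pole, the catalytic subunit of polymerase epsilon, had levels of 2.68, 2.66 and 2.58 in stimulated Th9 cells and 1.78, 2.01 and 2.64 in Th9 cells. For both, the Th9 array numbered 3 reached the level of the stimulated arrays.

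The primase subunits differed in direction. Prim1, the catalytic subunit, had levels of 3.86, 3.96 and 4.09 in stimulated Th9 cells, against 2.96, 3.37 and 3.74 in Th9 cells (0.61 ± 0.23, adjusted p = 0.0358, or 0.0883 once slide was a block). Prim2, the large regulatory subunit, had levels of 1.44, 1.65 and 1.63 in stimulated Th9 cells, against 3.14, 3.30 and 2.94 in Th9 cells. It was 2.94-fold lower (-1.56 ± 0.12, adjusted p = 1.43e-06), the only one of the 41 genes to fall, and a fit that takes the slide as a block also called it lower (-1.5, adjusted p = 0.000221). The Prim2 value rests on 1 probe, shown here because no second probe stands behind it. The scanner files place it on the minus strand at chr1:33398434-33398493 (build mm8), and whether that stretch is coding or untranslated was not examined.
Prim2 probe: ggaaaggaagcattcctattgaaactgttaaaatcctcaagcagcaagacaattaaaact

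On the lagging strand, Fen1 rose and Lig1 was not called. Fen1, the flap nuclease that trims RNA primers, had levels of 3.39, 3.52 and 3.37 in stimulated Th9 cells, against 0.90, 1.23 and 1.84 in Th9 cells, a 4.29-fold increase (2.10 ± 0.25, adjusted p = 2.74e-05). Lig1, the ligase that joins the fragments, had levels of 4.53, 4.57 and 4.61 in stimulated Th9 cells, against 4.67, 4.75 and 5.09 in Th9 cells. Its arrays did not overlap, but the difference of -0.26 ± 0.17 was not called (adjusted p = 0.195, 95% interval -0.64 to 0.11).

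Among the genes of nucleotide supply, both subunits of ribonucleotide reductase rose. Rrm2, the regulated small subunit, had levels of 2.59, 2.77 and 3.04 in stimulated Th9 cells, against 0.30, 0.50 and 1.34 in Th9 cells (2.09 ± 0.30, adjusted p = 0.000116). Rrm1, the large subunit, rose by 0.88 ± 0.18. Tyms, thymidylate synthase, had levels of 3.43, 3.86 and 3.88 in stimulated Th9 cells and 2.48, 2.58 and 3.29 in Th9 cells (0.94 ± 0.26, adjusted p = 0.00898). Tk1, which makes the same nucleotide by salvage, had levels of 1.90, 2.24 and 2.60 in stimulated Th9 cells, against 2.41, 2.11 and 2.78 in Th9 cells, and its groups overlapped (-0.18 ± 0.25, 95% interval -0.74 to 0.37, adjusted p = 0.541).

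Of the genes that copy chromatin and DNA methylation onto new DNA, 3 of 4 rose. Uhrf1, which brings the methyltransferase to newly copied DNA, had levels of 4.05, 4.30 and 4.34 in stimulated Th9 cells, against 2.36, 2.59 and 3.19 in Th9 cells (1.52 ± 0.26, adjusted p = 0.000411). The histone chaperone genes Chaf1a (1.17 ± 0.27) and Chaf1b (1.25 ± 0.23) also rose. Dnmt1, the methyltransferase itself, had levels of 2.87, 2.85 and 2.98 in stimulated Th9 cells and 2.28, 2.45 and 3.03 in Th9 cells (0.32 ± 0.20, 95% interval -0.13 to 0.76, adjusted p = 0.189).

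**Figure D2:**
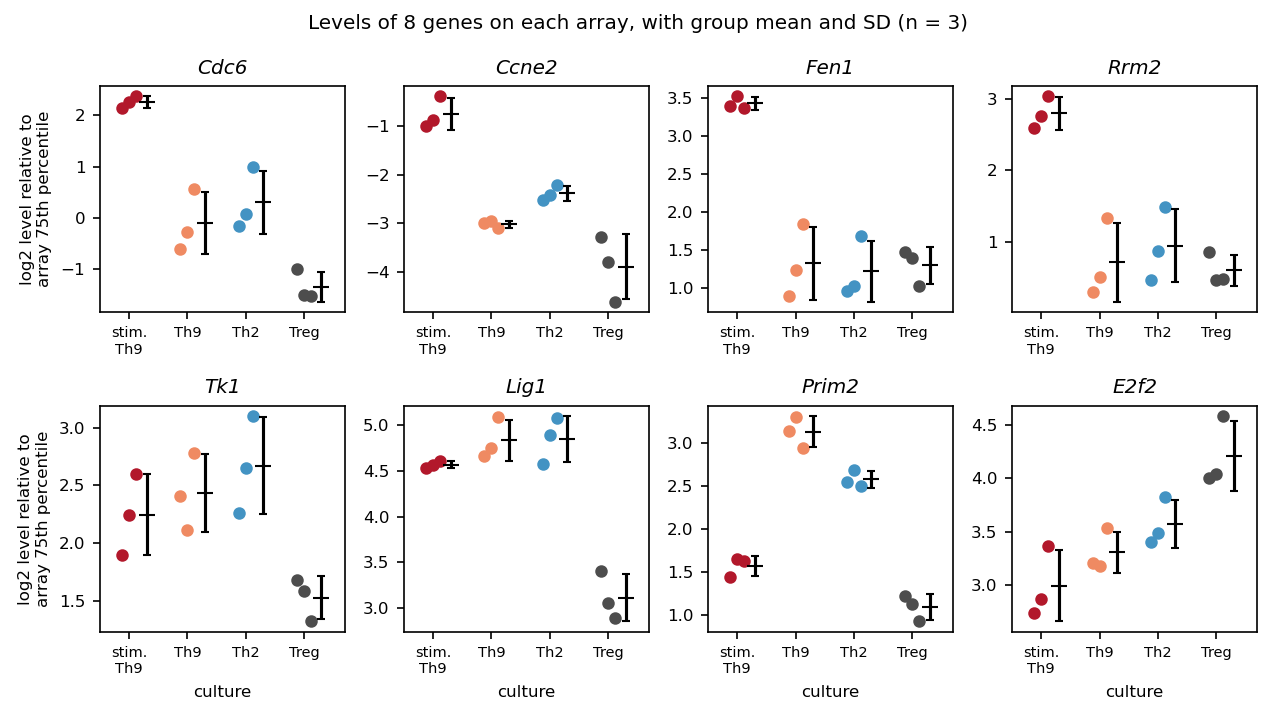
Log2 levels of 8 genes relative to the array's 75th percentile, with the 3 arrays of each group as points and the group mean with its SD as black bars (n = 3). Cdc6, Ccne2, Fen1 and Rrm2 lie far higher in stimulated Th9 than in Th9 cells, Tk1 and Lig1 do not, Prim2 is lower in stimulated Th9 cells, and E2f2 is highest in Treg cells.

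Between unstimulated cultures, Th9 cells had more replication gene RNA than Treg cells. Of the 41 genes, 28 were higher, 3 were lower (E2f2, Rpa1 and Rfc2) and 10 were not called, whereas 28.1% of all genes tested were called higher and 36.2% lower. The median difference was 0.86 over the 41 genes and -0.13 over all genes, and the groups did not overlap for 32 of the 41, against 69.4% of all genes. Th2 cells set against the same Treg arrays gave 27 higher and 2 lower (E2f2 and Rpa1), with a median of 1.14, where 28.5% of all genes were called higher and 34.6% lower, and the median over all genes was -0.11. Since both comparisons use the same Treg arrays, their values stand side by side and are not independent. In Th2 minus Treg, Gins2 (2.24), Rfc3 (2.17), Lig1 (1.74) and Pold1 (1.41) were called higher, and Fen1 (-0.08) and Rrm2 (0.35) were not called.

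With the slide as a block, 11 genes were called higher and 2 lower between Th9 and Treg cells (median 0.97), where 17.1% of all genes were called higher and 20.5% lower, and 18 were higher and 1 lower between Th2 and Treg cells (median 0.89), where the shares of all genes were 23.4% and 27.1%. Between Th9 and Treg cells the genes called in that fit were Chaf1a, E2f1, Gins2, Lig1, Mcm5, Mcm6, Pold1, Prim1, Prim2, Rfc3 and Rfc4 as higher and E2f2 and Rpa1 as lower, and the other 18 calls given here for Th9 and Treg cells were lost. The slide that held the Th2 arrays and 1 Treg array gave a positive Th2 minus Treg difference for 35 of 41 genes. The block fit takes its Th2 minus Treg differences from these same arrays, so this is not a second check. Markers of T cells and of other cells moved with these comparisons. The summed signal of 11 pan T cell markers, relative to the 75th percentile, was 250 to 268 in Th9 cells, 269 to 303 in Th2 cells and 454 to 571 in Treg cells, and 7 of the 11 were called lower in Th9 and 8 in Th2 than in Treg cells. That of CD8 T and NK cell markers was 22.7 to 29.7 in Th9, 14.7 to 18.9 in Th2 and 23.4 to 43.6 in Treg cells. The summed signal of 10 B cell markers was 5.43 to 7.29 in Th9 cells, 2.62 to 4.47 in Th2 cells and 59.8 to 81.6 in Treg cells. All 10 were above background on all 3 arrays of Th9 and of Treg cells, and 8 were on all 3 Th2 arrays. Of the 10, 9 were called lower in Th9 than in Treg cells. The summed signal of 11 myeloid and dendritic markers was 2.04 to 2.84 in Th9, 2.28 to 2.77 in Th2 and 10.7 to 12.0 in Treg cells, with Fcgr1, Clec9a and Siglech above background on no array and Lyz2 and Itgam on Treg arrays only. The part of these shifts in the lower Treg values was not tested.

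Against Treg cells, each of the 6 polymerase and primase genes was called higher in Th9 cells (median 0.99). Prim2 had levels of 3.14, 3.30 and 2.94 in Th9 cells, against 1.22, 1.13 and 0.93 in Treg cells, and was 4.09-fold higher (2.03 ± 0.12, adjusted p = 2.56e-07). Prim1 had levels of 2.36, 1.96 and 1.83 in Treg cells, below all Th9 arrays (1.30 ± 0.23, adjusted p = 0.000522). Pold1 (0.97 ± 0.17) and Pole (1.01 ± 0.24) were 1.95-fold and 2.01-fold higher in Th9 cells, and Pola1 differed by 0.81 ± 0.29.

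Pola2, the second subunit of polymerase alpha, passed the threshold with the chosen probe only (0.43 ± 0.17, adjusted p = 0.0497). A second probe of the gene, also above background on all arrays, gave -0.53 for Th9 minus Treg and -0.57 for Th2 minus Treg, so Pola2 has no settled direction between these cultures. Both probes lie on the minus strand in build mm8, the chosen one at chr19:5946484-5946543 and the other at chr19:5950346-5950405, and they are printed because they read different stretches of the gene.
Pola2 chosen probe: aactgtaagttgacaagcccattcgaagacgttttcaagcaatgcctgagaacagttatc
Pola2 second probe: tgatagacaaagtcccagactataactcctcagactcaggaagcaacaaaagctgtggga

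Licensing and origin genes, 10 of 13, were called higher in Th9 cells than in Treg cells (median 1.1). Gins2 had levels of 1.14, 1.21 and 1.61 in Th9 cells, against -0.46, -1.21 and -0.68 in Treg cells, a 4.30-fold difference (2.10 ± 0.21, adjusted p = 8.34e-06). Mcm5 had levels of 3.83, 3.90 and 4.49 in Th9 cells and 2.86, 2.40 and 2.37 in Treg cells (1.53 ± 0.25, adjusted p = 0.000286). Neither gene overlapped between the cultures. Cdt1 had levels of 3.87, 4.15 and 4.65 in Th9 cells, against 3.08, 2.92 and 3.36 in Treg cells (1.1 ± 0.21, adjusted p = 0.000945). Mcm6 was higher by 1.19 ± 0.14, Cdc45 by 1.43 ± 0.31 and Cdc6 by 1.24 ± 0.33, whereas Mcm4 (0.18 ± 0.19), Mcm7 (0.35 ± 0.20) and Gins3 (-0.54 ± 0.22) were not called.

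Lig1 and the clamp loader genes Rfc3 and Rfc4 separated the cultures widely. Lig1 had levels of 4.67, 4.75 and 5.09 in Th9 cells, against 3.40, 3.05 and 2.89 in Treg cells, and was 3.30-fold higher (1.72 ± 0.17, adjusted p = 7.74e-06). Rfc3 had levels of 0.16, 0.28 and 0.31 in Th9 cells, against -0.86, -1.24 and -1.34 in Treg cells (1.40 ± 0.13, adjusted p = 4.08e-06). Rfc4 had levels of 2.68, 2.76 and 3.10 in Th9 cells and 1.81, 1.46 and 1.53 in Treg cells (1.25 ± 0.17, adjusted p = 9.54e-05). In the same role Pcna was higher by 0.48 ± 0.16, while Rfc1 (-0.04 ± 0.14), Rfc5 (0.46 ± 0.19, adjusted p = 0.0517) and Rpa2 (-0.29 ± 0.20) were not called. Fen1 differed by only 0.03 ± 0.25 (95% interval -0.53 to 0.58), with levels of 0.90, 1.23 and 1.84 in Th9 cells that overlapped those of 1.47, 1.40 and 1.02 in Treg cells.

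For nucleotide supply, Tk1 (0.90 ± 0.25), Tyms (0.71 ± 0.26) and Rrm1 (0.61 ± 0.18) were higher in Th9 cells than in Treg cells, and Rrm2 was not called (0.12 ± 0.30). Tk1 levels were 2.41, 2.11 and 2.78 in Th9 cells, against 1.68, 1.58 and 1.32 in Treg cells. In the chromatin group, Chaf1a (1.41 ± 0.27), Uhrf1 (1.05 ± 0.26) and Dnmt1 (0.53 ± 0.20) were higher and Chaf1b was not called (0.22 ± 0.23). Chaf1a levels of 1.63, 1.89 and 2.60 in Th9 cells lay clear of 1.00, 0.42 and 0.47 in Treg cells. E2f1 was higher by 1.07 ± 0.18 and Ccne2 by 0.88 ± 0.28 in Th9 cells, and Ccne1 differed by -0.07 ± 0.34.

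E2f2 ran against the other genes. This E2F factor, known in mice as a brake on T cell proliferation, had levels of 2.74, 2.87 and 3.37 in stimulated Th9 cells, 3.21, 3.18 and 3.53 in Th9 cells, 3.40, 3.49 and 3.82 in Th2 cells and 4, 4.04 and 4.58 in Treg cells. The Treg arrays lay above all others. E2f2 was 1.87-fold lower in Th9 than in Treg cells (-0.90 ± 0.21, adjusted p = 0.00319) and lower in Th2 than in Treg cells (-0.64 ± 0.21, adjusted p = 0.0211), and stimulation gave -0.31 ± 0.21, which was not called. In the slide-block fit the Th9 minus Treg difference was -1.57 (adjusted p = 0.00708), and that of Th2 minus Treg was -0.43 and not called (adjusted p = 0.185), which left Rpa1 as the 1 gene called lower there. Rpa1 was lower in Th9 than in Treg cells (-0.88 ± 0.18, adjusted p = 0.00118), with means of 2.04 ± 0.30 in Th9 and 2.92 ± 0.14 in Treg cells (SD, n = 3 each). Rfc2 was called lower by a small amount (-0.42 ± 0.15, adjusted p = 0.0307) although its groups overlapped.

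**Figure D3:**
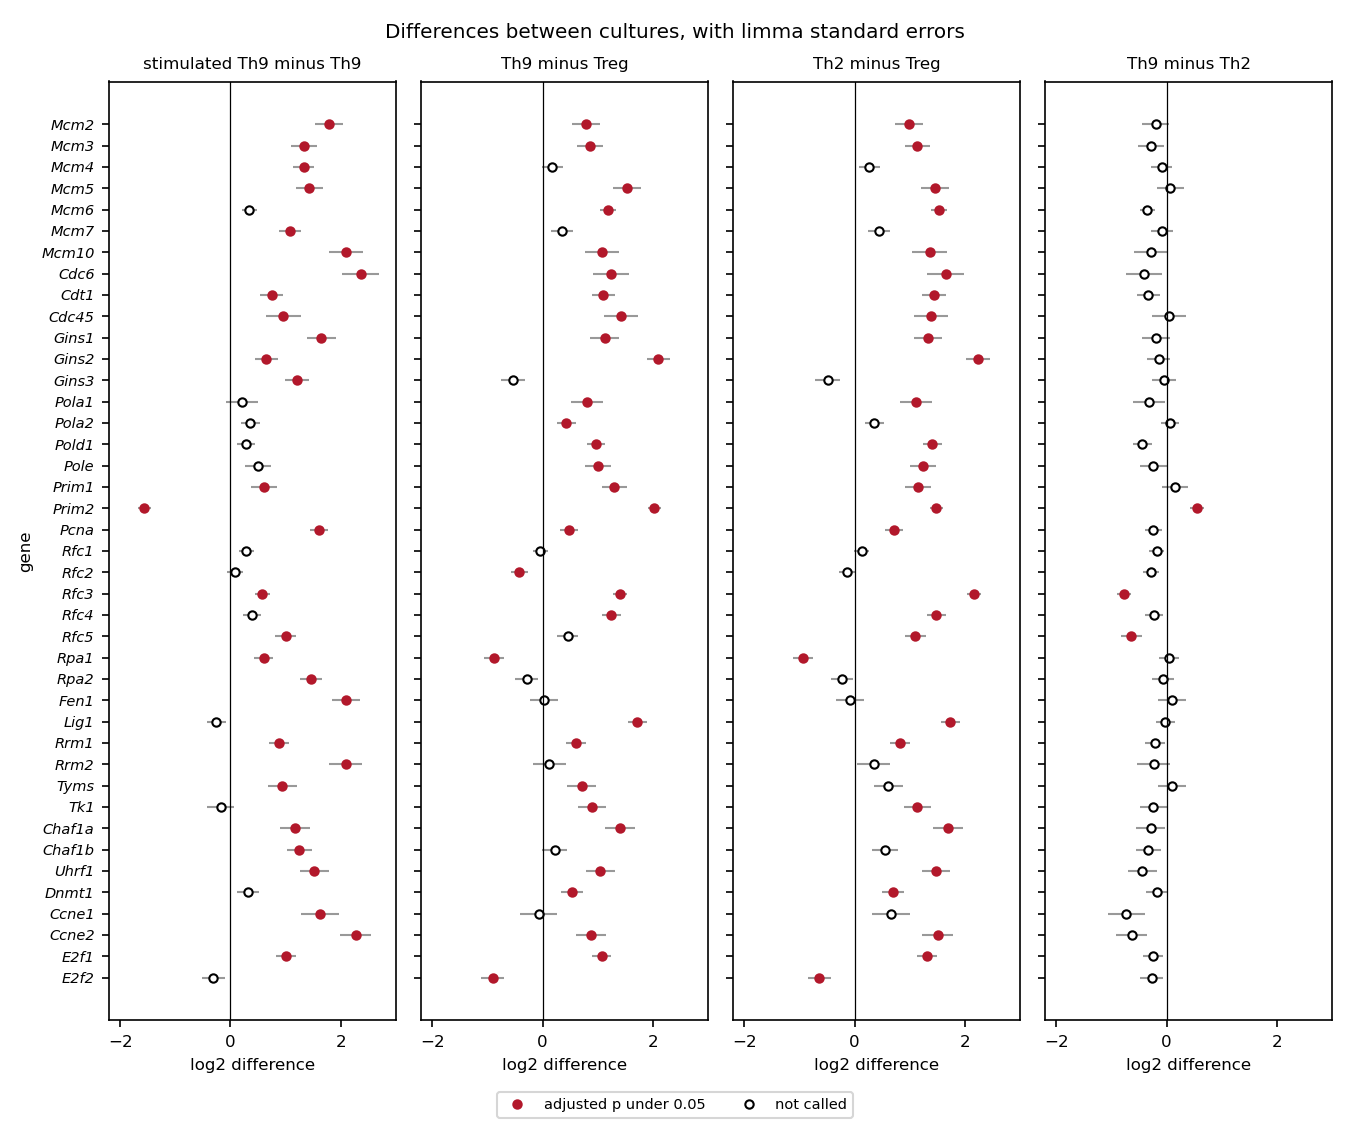
Log2 differences of the 41 DNA replication genes (rows) in 4 comparisons, as points with limma SE bars. Filled points passed an adjusted p under 0.05. Most points lie right of 0 after stimulation and in both comparisons with Treg cells. Th9 minus Th2 has 3 called genes and a median of -0.23, with 33 of the 41 points left of 0.

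The comparison of Th9 with Th2 cells (cultures with and without TGF-β) called 3 of the 41 genes. Prim2 was higher in Th9 cells, and Rfc3 and Rfc5 were lower, where 7.91% of all genes were called higher and 9.18% lower. Of the 41, 6 had an unadjusted p under 0.05, the median difference was -0.23 (all genes -0.02), and 33 of the 41 differences were negative. Prim2 levels were 3.14, 3.30 and 2.94 in Th9 cells, against 2.54, 2.68 and 2.5 in Th2 cells (0.55 ± 0.12, adjusted p = 0.0130). Rfc3 levels were 0.16, 0.28 and 0.31 in Th9 cells, against 0.93, 1.06 and 1.08 in Th2 cells (-0.77 ± 0.13, adjusted p = 0.00258), and Rfc5 differed by -0.64 ± 0.19 (adjusted p = 0.0415).

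None of the 41 was called between Th9 and Th2 cells with the slide as a block (median 0.02), and 1.09% of all genes were called higher and 0.73% lower. In the fit without the block, the cyclin E genes had the largest differences among the genes not called. Ccne1 differed by -0.73 ± 0.34 (95% interval -1.48 to 0.02, adjusted p = 0.171). Ccne2 levels of -3.00, -2.95 and -3.09 in Th9 cells did not overlap those of -2.52, -2.41 and -2.21 in Th2 cells, but the difference was not called (-0.63 ± 0.28, adjusted p = 0.154).

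Set side by side, the differences after stimulation and between Th9 and Treg cells divided the 41 genes. These comparisons share the Th9 arrays, which enter them with opposite sign, so the division is a description. In both, 18 genes were higher, among them Cdc6, Ccne2, E2f1, Gins1, Mcm2, Mcm5, Mcm10, Pcna and Uhrf1. Against Treg cells only, 9 were called higher (Dnmt1, Lig1, Mcm6, Pola1, Pola2, Pold1, Pole, Rfc4 and Tk1), and after stimulation only, also 9 (Ccne1, Chaf1b, Fen1, Gins3, Mcm4, Mcm7, Rfc5, Rpa2 and Rrm2). Prim2 was higher in Th9 cells than in Treg cells and fell after stimulation, and Rpa1 had the reverse pattern. E2f2 and Rfc2 were called only against Treg cells, as lower, and Rfc1 was called in neither comparison. Of all genes, 31.9% were called higher and 32% lower after stimulation, against 28.1% and 36.2% between Th9 and Treg cells. The share of all genes in each combination of calls was not counted, so which combinations are unusual cannot be told.

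How closely a gene followed the others can be read from its correlation with the median of the other members over the 12 arrays, whose groups and scaling all genes share. Pearson's r was 0.9 or above for 24 genes, with Rrm1 and Uhrf1 highest (1.00 after rounding). It was lowest for Gins3 (0.53), Prim2 (0.15), Rpa1 (-0.14), Rfc2 (-0.28) and E2f2 (-0.72).

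Within the Th9, Th2 and Treg groups, most of the genes were highest on the same array. The array numbered 3 was the highest of its group for 39 of 41 genes in Th9 cells and for 39 of 41 in Th2 cells, while it was highest for 36.7% and 35.0% of all genes. These arrays were also highest for 30 of 32 mitosis genes in Th9 cells and for all 32 in Th2 cells. In Treg cells, array 1 was highest for 32 of the 41 replication genes and array 3 for all 32 mitosis genes. In stimulated Th9 cells, arrays 1, 2 and 3 were highest for 4, 13 and 24 of the 41 replication genes, and array 2 was highest for 26 of the 32 mitosis genes. Without the arrays numbered 3, an alternative chosen after the data were seen, the Th9 minus Treg median was 0.56 and 6 genes were called lower, and Fen1 was among them (-0.37, adjusted p = 0.0433). Of all genes, 36.7% were called lower in that setting.

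Other replication genes, from a list of 40 outside the 41, gave 25 higher and 5 lower after stimulation, with a median of 0.66. Over all genes tested, 31.9% were called higher and 32% lower. Orc1, a subunit of the origin recognition complex, had levels of 0.75, 0.74 and 0.90 in stimulated Th9 cells, against -1.52, -1.18 and -1.05 in Th9 cells (2.05 ± 0.20, adjusted p = 6.18e-06), and Orc2, another subunit, rose by 2.15 ± 0.17. The other subunits of that complex did not all rise, and some were lower on every stimulated array than on any Th9 array. Pold4, the smallest subunit of polymerase delta, fell by 2.66 on the log2 scale (SE 0.14, adjusted p = 1.52e-07), and Pole3, a small subunit of polymerase epsilon that is also found in chromatin remodelling complexes, rose by 2.08 ± 0.17 with 1 stimulated array missing. Between Th9 and Treg cells this list gave 20 higher and 2 lower (median 0.43), led by Orc1 (2.59 ± 0.20, adjusted p = 1.33e-06) and Pole2, a subunit of polymerase epsilon (1.94 ± 0.19), and with the slide as a block 11 higher and 0 lower. The shares of all genes there were 28.1% higher and 36.2% lower, or 17.1% and 20.5% with the block. Between Th9 and Th2 cells 2 genes of the list were lower, Dna2 (-0.97 ± 0.21) and Dut (-0.73 ± 0.17), and neither was with that block.

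Many mitosis genes fell after stimulation. Of 32, 3 were higher and 15 lower in stimulated Th9 than in Th9 cells (median -0.67), where 31.9% of all genes were called higher and 32% lower. With the slide as a block 2 were higher and 7 lower (median -0.72), where 25.9% of all genes were higher and 24.8% lower. In that fit the share of the list called lower was no larger than that of all genes. Ccnb2, encoding a mitotic cyclin, had levels of 1.65, 1.72 and 1.27 in stimulated Th9 cells, against 3.7, 3.58 and 4.20 in Th9 cells (-2.28 ± 0.31, adjusted p = 6.66e-05). Nusap1 (-1.81), Bub1 (-1.58) and Cenpf (-1.46), genes of the spindle and kinetochore, also fell, and Mki67, the proliferation marker, differed by -0.84 (adjusted p = 0.0168), which was not called in the slide-block fit (-0.77, adjusted p = 0.156). Between Th9 and Treg cells the mitosis list gave 23 higher and 1 lower (median 1.05), or 8 and 1 with the block. The shares of all genes there were 28.1% higher and 36.2% lower, or 17.1% and 20.5% with the block. Between Th9 and Th2 cells none of the mitosis genes was called by limma and none had an unadjusted p under 0.05.

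**Figure D4:**
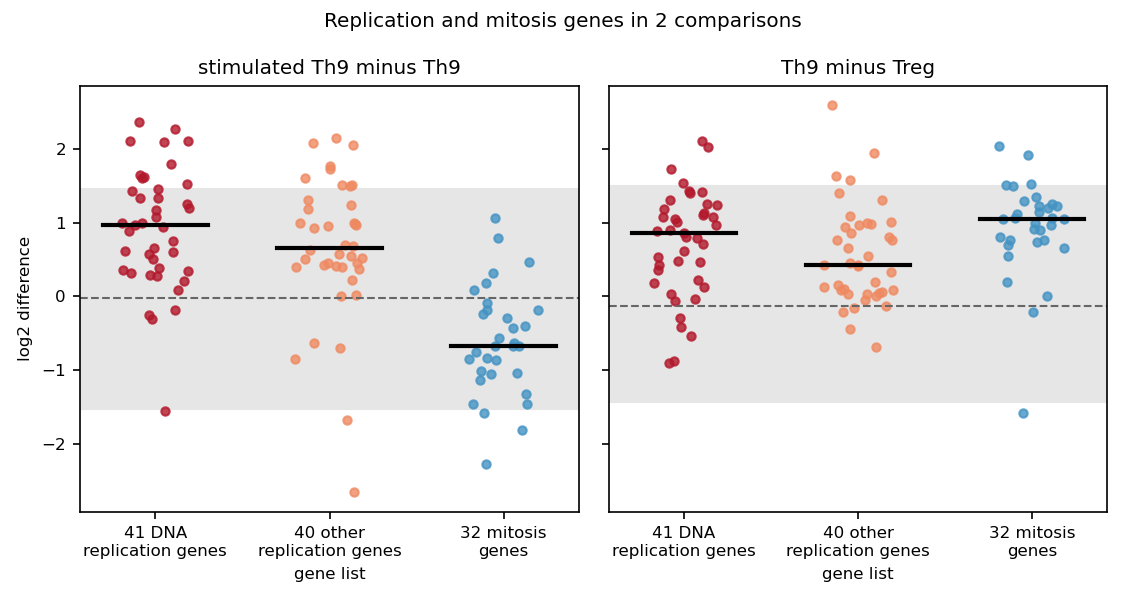
Log2 differences of the 41 DNA replication genes, 40 other replication genes and 32 mitosis genes for stimulated Th9 minus Th9 (left) and Th9 minus Treg (right), 1 point per gene with the list median as a black bar. The grey band leaves out the lowest and the highest 10% of all genes tested and the dashed line is their median. Replication medians are 0.96 and 0.66 and the mitosis median is -0.67 on the left, and all 3 lie above 0 on the right.

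Genes that control E2F and entry into the cycle changed in both directions after stimulation. Of 14 E2F and pocket protein genes, 9 rose and 3 fell, and with the slide as a block the counts were 8 and 1. Rb1, the retinoblastoma gene, fell by 2.18 (SE 0.13, adjusted p = 2.83e-07), and Tfdp1, the dimer partner of E2F factors, rose by 2.00 ± 0.18. Of 14 G1 cyclins, CDKs and inhibitors, 5 rose and 4 fell, or 4 and 3 with the slide as a block. Over all genes tested, 31.9% were called higher and 32% lower (25.9% and 24.8% with the block), and the G1 counts lay near those shares. Cdkn1b, encoding the CDK inhibitor p27, had levels of -1.31, -1.06 and -0.82 in stimulated Th9 cells, against 2.43, 2.14 and 1.88 in Th9 cells (-3.22 ± 0.16, adjusted p = 1.03e-07), while Cdc25a, a CDK-activating phosphatase (2.21 ± 0.14), and Ccnd2, cyclin D2 (1.96 ± 0.12), rose. Cdkn1a, encoding the CDK inhibitor p21, also rose (2.10 ± 0.29), and Myc, which drives growth and cell cycle genes, rose by 2.54 ± 0.15.

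Against Treg cells the same lists gave 5 higher and 2 lower for E2F and pocket proteins and 5 higher and 4 lower for G1 genes in Th9 cells. Over all genes tested, 28.1% were called higher and 36.2% lower there. Cdkn1a (4.21 ± 0.29) and Cdk6, a cyclin D partner (3.22 ± 0.15), had the largest differences of these lists, and Ccnd1, cyclin D1, was lower (-1.17 ± 0.24). Myc differed by -0.03 ± 0.15. Between Th9 and Th2 cells Rb1 was higher (0.89 ± 0.13), Cdkn2b (-2.5 ± 0.32) and Cdkn2c (-0.67 ± 0.15), both CDK inhibitor genes, were lower, and Myc was lower (-1.46 ± 0.15, adjusted p = 0.000142). Myc was not called in the slide-block fit (-0.97, adjusted p = 0.202), nor was Ccnd1 between Th9 and Treg cells (-0.87, adjusted p = 0.187). No gene of the E2F and G1 lists was called between Th9 and Th2 cells when slide was a block.

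With stimulation, markers of other lymphocytes also shifted. Of 7 CD8 T and NK cell markers tested, 6 were lower in stimulated Th9 than in Th9 cells, with summed signals of 16, 15.3 and 2.78 on stimulated Th9 arrays 1, 2 and 3, and 22.7 to 29.7 in Th9 cells. Ncr1 was above background on no array. Of 10 B cell markers 7 were lower (summed signals of 2.17, 2.63 and 0.757 in stimulated Th9 and 5.43 to 7.29 in Th9 cells), and Blk and Fcrla were above background on none of the stimulated arrays. Stimulated array 3, the one on the slide of the Th9 arrays and so the one behind the slide-block differences, was the lowest in both sums. Without it, 27 of the 41 replication genes were called higher and 1 lower after stimulation (median 0.94). In that fit 31% of all genes were called higher and 31.6% lower.

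E2F sites are the best-known control element of these genes, so promoters were searched from 250 bases before to 50 bases after each RefSeq start (build GRCm38.p6), where 34 of the 41 genes had an entry. A gene with several starts counted if any of its windows matched, so such genes had more chances. The letters TTTCCCGC, TTTCGCGC, TTTGCCGC or TTTGGCGC, on either strand, stood in 14 of the 34 genes (41.2%), 11 of 33 other replication genes (33.3%) and 1 of 26 mitosis genes (3.85%). They stood in 4.29% of 11312 genes tested on the array and in 2.60% of all 27025 genes with an entry. TTTGCCGC was in none of the 34. Median GC content was 60.1% for the 34 and 60% for the genes tested. The CHR letters TTTGAA, known from G2 and M phase genes, stood in 17.6% of the 34, 65.4% of the mitosis genes and 14.6% of the genes tested, and CCAAT, on either strand, in 61.8%, 76.9% and 42.6%.

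**Figure D5:**
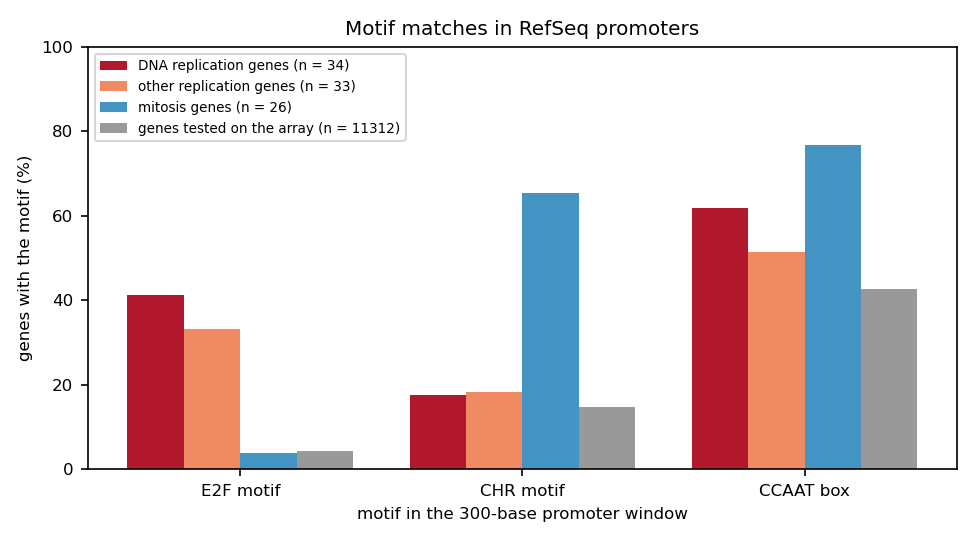
Percent of genes with at least 1 E2F, CHR or CCAAT match on either strand in any of their promoter windows of 300 bases, for the DNA replication genes (n = 34), other replication genes (n = 33), mitosis genes (n = 26) and all genes tested on the array with an entry (n = 11312). The E2F bars are 41.2% and 33.3% for the replication lists and below 5% for the others, and the CHR bar is 65.4% for mitosis genes.

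The sites below are shown for genes that differed in response while sharing these letters, with 11 bases on each side and the first match in capitals, 5′ to 3′ along the gene. Mcm5 (chr8:75109345-75109374, plus strand) has the match at position -153 (its first base, counted from the start), and its TTTCGCGC overlaps a TTTGGCGC on the other strand. Mcm7 (chr5:138172030-138172059, minus strand), Cdc6 (chr11:98908002-98908031, plus strand), Pola1 (chrX:93632275-93632304, minus strand), Rfc3 (chr5:151651200-151651229, minus strand) and Uhrf1 (chr17:56304117-56304146, plus strand) have matches at -165, -138, -138, -10 and -185, in that order. Rfc3 has a second match, left in lower case, 2 bases after the first.
Mcm5: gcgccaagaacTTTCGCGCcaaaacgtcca
Mcm7: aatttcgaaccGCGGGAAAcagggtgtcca
Cdc6: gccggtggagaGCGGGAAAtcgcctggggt
Pola1: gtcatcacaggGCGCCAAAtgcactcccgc
Rfc3: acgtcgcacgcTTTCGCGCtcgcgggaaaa
Uhrf1: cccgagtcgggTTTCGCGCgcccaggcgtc

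Mcm6 has 3 matches in its window, the most of the 34 genes, and a pair of them overlap on opposite strands. The 250 bases before its start (chr1:128359706-128359955, minus strand, RefSeq, GRCm38.p6) are printed with the matches in capitals, because Mcm6 was the helicase subunit that was not called after stimulation.
Mcm6 upstream: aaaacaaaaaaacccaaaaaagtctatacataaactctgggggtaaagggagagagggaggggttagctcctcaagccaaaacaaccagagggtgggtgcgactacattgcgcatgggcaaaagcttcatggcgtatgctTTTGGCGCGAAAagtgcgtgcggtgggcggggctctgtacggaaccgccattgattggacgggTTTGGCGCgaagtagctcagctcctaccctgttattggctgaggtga

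A match is a description of letters, not a measured binding site. Matches stood in 8 of 24 genes that rose after stimulation (33.3%) and in 6 of 10 of those that did not (60%). They stood in 11 of 23 genes higher in Th9 than in Treg cells (47.8%) and in 3 of 11 of the others (27.3%).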

How the data were processed

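RNA of 12 samples (0.5 µg each) was labelled with Cy3 and hybridised to one-colour Agilent arrays, per the labels' protocols. The deposited scanner files give spot intensity on a linear scale, background-subtracted and not scaled between arrays, which per the file headers came from version 10.5.1.1 of Agilent Feature Extraction. A deposited table of log2 values (correlation with log2 processed signal of 0.99958 or above, column medians 5.171 to 5.174, scaling tool not given in the sources used here) served as an alternative.

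For 43379 non-control spots per array, log2 was taken and each array's 75th percentile (a signal of 557.9 to 826.6) was subtracted on that scale. Outlier spots (60 to 94) were then left out and the log2 values of the spots of a probe were averaged (41174 probes, none saturated). Probes had to be well above background on 3 arrays, and 59.9 to 63.7% of probes were, per array. A gene took its probe with the highest mean. Names came from RefSeq accessions (24375 probes), symbols (6301) or older symbols (2426), with 8072 left under the design's name. Of the genes, 12 had several tested probes, and in each comparison 11 of these had probes of the same sign (Tyms, Pola2 or Rfc2 differed). Probes of Pcna and Tyms may also bind near-identical copies, so these genes are uncertain. Repeated spots of 1 probe varied by an SD of 0.017 to 0.099 on the log2 scale. The number of arrays limits the precision.

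One limma model (version 3.58.1, in R 4.3.3, 8 residual and 2.5 prior degrees of freedom) covered the 12 arrays, with Benjamini-Hochberg adjustment over 17938 genes. The script was tested on simulated data. Promoter letters were counted and figures drawn with Python 3.11.15, pandas 2.3.3 and matplotlib 3.10.9. The members and lists were chosen with earlier results of these data known. Any of the 41 could be named. Array values are given for up to 4 genes per role with the largest difference and for Mcm2, Mcm5, Cdc6, Cdt1, Pcna, Rrm2, Tyms, Tk1, Ccne1, Ccne2, E2f1, E2f2, Uhrf1 and Dnmt1, and up to 4 called genes per other list and comparison, with Myc, Mki67, Il9, Foxp3, Il4, Il2 and Gata3. Alternatives were normexp background correction, quantile normalization, the deposited log2 table, other probe filters, the mean of all probes, slide and replicate as blocks, only the 6 arrays compared, and leaving out arrays.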

Additional observations from a re-analysis of the deposited data

How the results depend on the processing

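The direction of the median over the 41 genes held under all alternatives for stimulated Th9 minus Th9, Th9 minus Treg and Th2 minus Treg, and between Th9 and Th2 it lay near 0 with the slide as a block (0.02). With the slide as a block, Th9 minus Th2 had 0 genes higher and 0 lower by limma, Th9 minus Treg had 11 higher and Th2 minus Treg 1 lower. This fit compares arrays within slides, and fewer arrays then bear on each difference. As a random block the slide had a correlation of 0 and changed no count. Between Th9 and Th2, 4 genes were lower with normexp, and 1 was lower with quantile normalization, with the deposited log2 table and with no filter on dim probes. Of all genes, 13%, 8.89%, 8.85% and 4.63% were called lower in those settings, in that order. After stimulation, 3 were lower with quantile normalization and with the deposited table, and 2 with the replicate block. Of all genes, 32.4%, 32.4% and 32.5% were called lower there. Whether the replicate numbers pair the samples is not settled. Residuals of same-numbered arrays correlated at 0.02 to 0.21, 0.02 to 0.18 and -0.02 to 0.41 for numbers 1, 2 and 3. Differently numbered arrays were not set beside them, so these values cannot decide it. The replicate block moved the other counts by less than 1.5 times. Leaving out 1 array at a time gave 0 to 1 higher and 1 to 5 lower for Th9 minus Th2 (medians -0.41 to -0.02), 22 to 29 higher and 2 to 5 lower for Th9 minus Treg (0.66 to 0.99), 25 to 32 higher and 1 lower after stimulation (0.81 to 1.16), and 27 to 31 higher and 1 to 3 lower for Th2 minus Treg (0.92 to 1.34). Of all genes, those fits called 4.79 to 7.12% higher and 4.96 to 8.31% lower for Th9 minus Th2. For Th9 minus Treg the shares were 25.3 to 28.3% and 32.5 to 34.7%. After stimulation they were 29.3 to 31% and 29.3 to 31.6%, and for Th2 minus Treg 25.8 to 28.7% and 30.9 to 33.1%. The 5 lower calls in both Th9 comparisons came without Th9 array 3, and the 0 higher calls without Th9 array 2. Single lower calls came without Th2 array 2, Th2 array 3, Th9 array 1 or Th9 array 2 (Th9 minus Th2) and without Th2 array 1, Th2 array 2 or Treg array 3 (Th2 minus Treg). Without the arrays numbered 3, chosen after seeing the data, Th9 minus Treg had 6 lower (median 0.56), stimulated Th9 minus Th9 2 lower and Th2 minus Treg 5 lower. Of all genes, 36.7%, 33.7% and 34.1% were called lower in that setting, in the same order. Between Th9 and Treg, Fen1 turned to -0.37 in that setting (adjusted p = 0.0433), and Pola2 to -0.05 with the mean of all its probes (adjusted p = 0.804). The causes of these changes were not tested.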
